A study of Mus musculus with 6 samples.

Results

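The proteasome genes of mouse tail skin were taken from the count table by name: symbols that begin with Psma to Psmg and a digit, and Pomp, without entries described as pseudogenes. This gave 52 of 18180 genes. By role they were 7 genes of the alpha ring and 7 constitutive beta genes of the 20S core, 3 catalytic beta genes of the immunoproteasome, 17 genes of the 19S cap, 3 genes of the PA28 alpha-beta cap, 3 of other activators and an inhibitor, 8 of assembly chaperones, and 2 genes of 20S forms restricted to other tissues. The remaining 2, Psmc3ip and Psme3ip1, carry a proteasome name but encode no subunit.

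RNA was sequenced from 6 libraries of tail skin, 3 from control mice and 3 labelled cKO. All mice had both Mettl3 alleles floxed (Mettl3fl/fl), and METTL3 is the subunit of the methyltransferase that writes m6A on RNA. Control mice lacked the Cre transgene (K14creERT2-/-), and the cKO label stands for K14creERT2+/-. In mice with this transgene the keratin 14 promoter, active in basal keratinocytes, drives a tamoxifen-dependent Cre. Tissue was taken 4 weeks after 5 daily injections of tamoxifen, from inflamed tail areas of mice with Cre and from normal tails of mice without, so genotype and inflammation cannot be told apart. The sources used here do not say whether each library is a different animal, so p-values reflect only the spread of these libraries, which may be technical.

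The 26S proteasome degrades proteins tagged with ubiquitin. Its 20S core is a stack of alpha and beta rings in which Psmb5, Psmb6 and Psmb7 carry the peptide-cutting sites, and its 19S cap binds ubiquitin chains, unfolds the substrate and feeds it in. In leukocytes, and in other cells exposed to interferon gamma, Psmb8, Psmb9 and Psmb10 are built into new cores in place of Psmb5, Psmb6 and Psmb7. The resulting immunoproteasome, often with the PA28 cap of Psme1 and Psme2, makes peptides suited to MHC class I. In keratinocytes, as in most cells, the constitutive subunits are made at all times, and the factor NFE2L1 raises their genes together when proteasome activity falls short.

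The stretches before the start sites of Psmb8 and Psmb9, the subunits that rose, and of their constitutive partners Psmb5 and Psmb6 are shown to set the pairs side by side: Psmb6 fell and Psmb5 was not called. Each has 250 bases that end at the annotated start, 5′ to 3′ on the gene's strand, from RefSeq on build GRCm38.p6. The deposited tables are on mm39, so these coordinates are those of the sequence table only. Capitals mark matches to the motifs described after the sequences.
Psmb8, chr17:34197945-34198194, plus strand: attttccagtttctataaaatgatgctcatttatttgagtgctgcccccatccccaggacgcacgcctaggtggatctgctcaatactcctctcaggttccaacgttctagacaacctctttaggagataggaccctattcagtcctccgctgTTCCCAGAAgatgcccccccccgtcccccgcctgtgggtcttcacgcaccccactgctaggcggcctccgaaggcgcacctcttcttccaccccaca
Psmb9, chr17:34187331-34187580, minus strand: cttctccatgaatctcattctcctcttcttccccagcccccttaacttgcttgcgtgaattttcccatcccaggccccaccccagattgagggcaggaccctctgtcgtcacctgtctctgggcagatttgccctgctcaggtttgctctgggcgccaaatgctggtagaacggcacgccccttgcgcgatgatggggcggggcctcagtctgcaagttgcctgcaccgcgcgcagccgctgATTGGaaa
Psmb5, chr14:54617996-54618245, minus strand: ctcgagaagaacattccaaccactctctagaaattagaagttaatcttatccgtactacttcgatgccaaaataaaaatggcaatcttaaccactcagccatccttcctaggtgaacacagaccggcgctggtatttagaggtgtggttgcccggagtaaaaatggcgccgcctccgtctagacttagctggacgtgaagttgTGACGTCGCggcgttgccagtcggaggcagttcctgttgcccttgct
Psmb6, chr11:70525107-70525356, plus strand: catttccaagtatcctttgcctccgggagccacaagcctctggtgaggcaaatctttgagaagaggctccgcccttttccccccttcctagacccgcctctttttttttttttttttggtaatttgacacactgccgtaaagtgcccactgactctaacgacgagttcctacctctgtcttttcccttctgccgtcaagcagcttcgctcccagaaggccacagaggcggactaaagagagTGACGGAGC
The capitals in Psmb8 match the gamma-activated site TTCNNNGAA, known from genes that respond to interferon gamma. Those in Psmb5 and Psmb6 match the antioxidant response element TGACNNNGC, which NFE2L1 and NFE2L2 are known to bind, and those in Psmb9 match the CCAAT box on the other strand. Both strands were searched, and no match shown overlaps another. Windows were at hand for 44 members, without Psma8, Psmb1, Psmb2, Psmb7, Psmc3, Psmd3, Psmd7 and Psmg2. A member was counted if any of its windows held the motif, whereas the share over all windows is per window. The members' shares can therefore be the higher ones where a gene has several windows. The gamma-activated site was in the windows of 2 of the 44, Psmb8 and Psmg1, and in 7.02% of all 32851 windows of this length. The antioxidant response element was in those of 5 members, Psmb5, Psmb6, Psmc6, Psmd9 and Psmd12, which is 11.4% against 10.2% of all windows. An interferon-stimulated response element core (GAAA, any 2 bases, GAAA) was in those of Psmb3, Psmd4 and Psmd9 and in 2.98% of all windows, and an NF-kB motif (GGG, any 2 bases, TTTCC) in that of Psme3ip1 and in 1.41%. The CCAAT box was in 16 members (36.4%) and in 33.8% of all windows. Psmb8 and Psmb9 lie in the MHC region on chromosome 17, on either side of the peptide transporter gene Tap1.

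Totals per library ran from 35855880 to 37043849 counts, of which the 52 genes held 0.555% to 0.562% in control and 0.541% to 0.545% in the libraries labelled cKO. Mettl3, the targeted gene, had 440, 389 and 337 control counts against 569, 512 and 540 where the label is cKO. It rose 1.4-fold (adjusted p = 0.000102) where the label implies a loss. The count covers the whole gene and is not split by exon, so it cannot tell whether some exons were lost. A loss of Mettl3 is therefore not shown in these data, and directions are drawn for the libraries labelled cKO. All 9 keratinocyte markers passed the filter. Of these 5 rose and 4 fell, where 30.8% of all genes tested were called higher and 30.6% lower. Summed levels of the markers were 43135 to 43443 CPM in control and 70974 to 71734 CPM in the libraries labelled cKO. Their median log2 fold change was 0.03, and most of the higher sum was Krt1, which went from 2170.1 ± 15.9 to 20492 ± 141 CPM. Levels between libraries are in CPM, a count scaled to 1e+06 by the TMM library size. Values run from control to the libraries labelled cKO, with mean ± SD over n = 3 libraries a group. A gene was called at an adjusted p under 0.05 in edgeR's quasi-likelihood test over all genes tested.

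Of the 52 genes, 50 passed the low-count filter, and 30 of them (60%) were called, 12 of them higher where the label is cKO and 18 lower, and 20 were not called. Over all 15061 genes tested 61.4% were called, 30.8% higher and 30.6% lower, so the members' share was near the background. The changes were small. The median size of change, without its sign, was 0.15 on the log2 scale for the members and 0.32 for all genes tested, and the median with its sign was -0.03 against 0.00. Only 10 members (20%) were called with a change of at least 1.2-fold, where 46.7% of all genes were, and Psmb9 alone passed 1.5-fold, where 22.7% of all genes did. The median control level of the 52 genes was 72.9 FPKM. All genes tested were not matched to them for level, and the part of level in these differences was not tested. On the TMM-scaled CPM the groups did not overlap in 30 members, and in 64.9% of all genes. This depends on the scaling. On the deposited FPKM the groups of Psmc1, Psmc2, Psmd4, Psmd13 and Psmg4 overlapped, while those of Psmb10 and Psma7 did not. Scaling by library totals gave 14 higher and 14 lower in place of 12 and 18, and limma on log2(FPKM + 1) gave 15 and 13. Calls were gained as well as lost. With library totals 2 members not called in the main fit were called, and with limma on log2(FPKM + 1) 3 were. Over all fits that left out 1 library, 5 such gains occurred. When the biological variation between libraries (BCV, a coefficient of variation) was set to 20%, where the fitted common value was 5.34%, Psmb9 was the only member called, beside 22.3% of all genes.

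**Figure D1:**
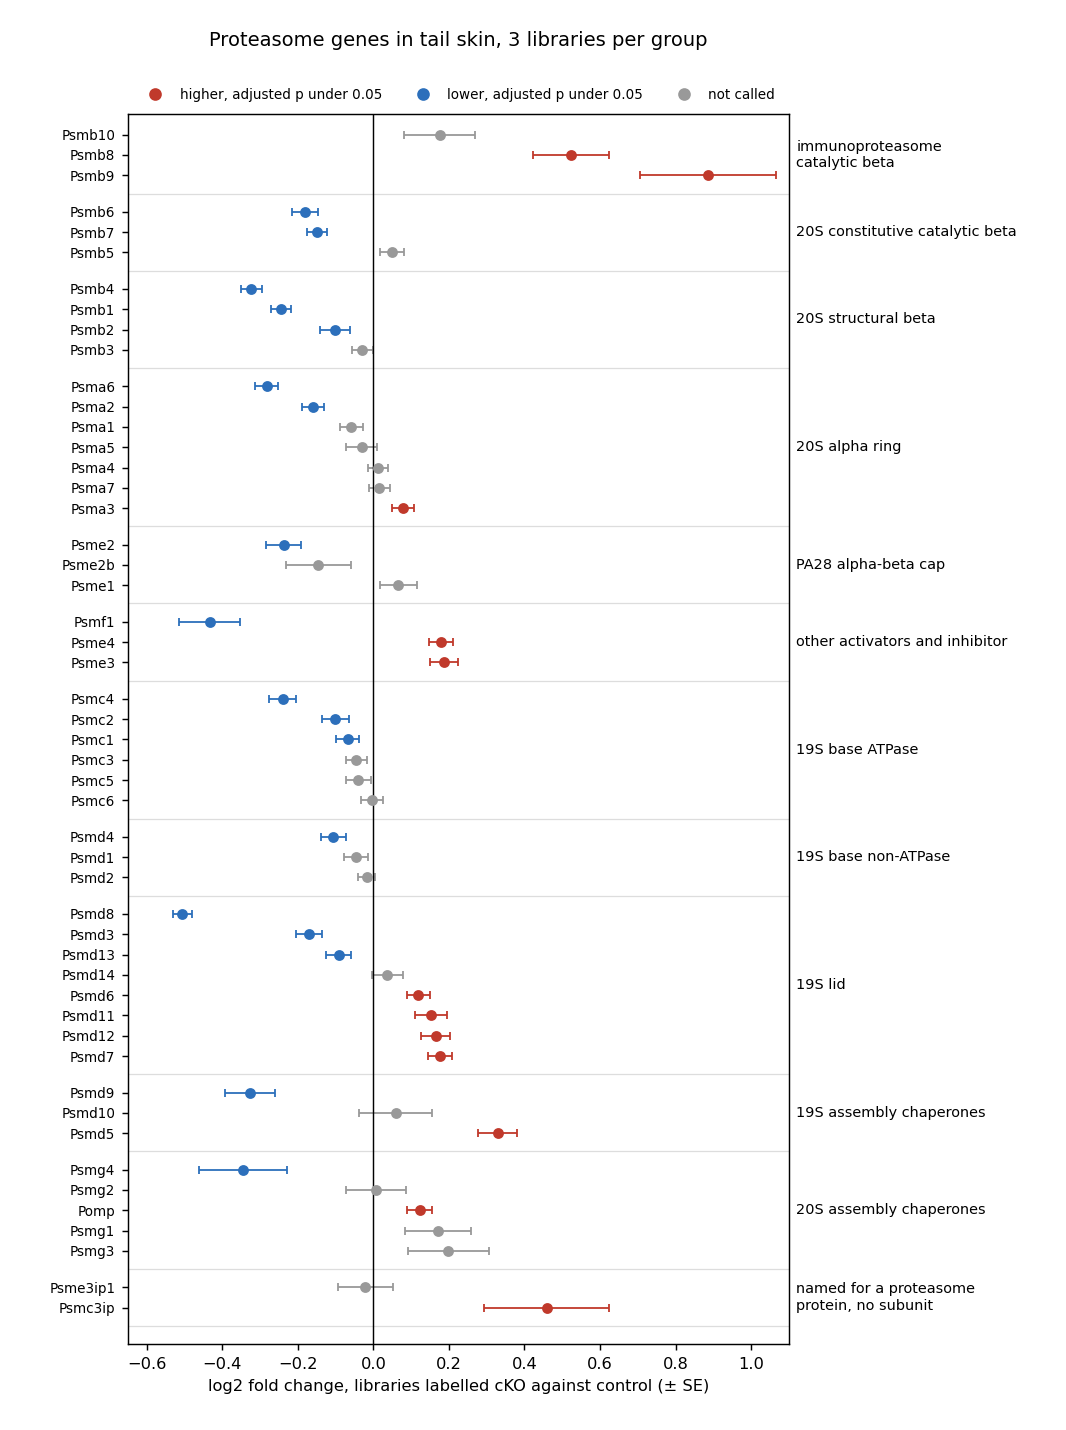
Log2 fold change of the 50 tested proteasome genes (horizontal axis, libraries labelled cKO against control, n = 3 each) with the standard error of the fit, grouped by role and coloured by call. Psmb9 and Psmb8 lie farthest to the right at 0.89 and 0.52, Psmd8 and Psmf1 farthest to the left at -0.51 and -0.43, and most others lie within 0.35 of 0.

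Of the 3 catalytic genes of the immunoproteasome, Psmb8 and Psmb9 rose and Psmb10 did not pass the test. Psmb9 (NCBI gene 16912), the beta 1i subunit that replaces Psmb6, had 3.62, 2.76 and 3.51 CPM in the control libraries and 6.2, 6.44 and 5.66 CPM in the libraries labelled cKO. Every library labelled cKO was above every control. It rose 1.85-fold (log2 fold change 0.89, SE 0.18, adjusted p = 1.60e-05), and with the assumed BCV of 20% its adjusted p was 0.00381. Psmb8 (NCBI gene 16913), the beta 5i subunit that replaces Psmb5, had 11.8, 12.8 and 12.1 CPM in control and 18.3, 18.5 and 15.9 CPM in the libraries labelled cKO. These groups did not overlap either, although replicate 3 labelled cKO lay below the other two. Psmb8 rose 1.44-fold (log2 fold change 0.52, SE 0.1, adjusted p = 5.02e-06), with an adjusted p of 0.108 under the assumed BCV. Psmb10 (NCBI gene 19171), the beta 2i subunit that replaces Psmb7, had 15.7, 14.7 and 16 CPM in control and 17.5, 15.8 and 18.9 CPM in the libraries labelled cKO. In CPM the lowest library labelled cKO lay between the controls, and the difference did not pass (log2 fold change 0.18, SE 0.095, adjusted p = 0.104). On the deposited FPKM, scaled by library totals, the groups of Psmb10 did not overlap. Its values were 12.2, 11.4 and 12.5 FPKM in control and 13.9, 12.6 and 15 FPKM in the libraries labelled cKO.

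The controls gave 99 to 133 counts for Psmb9, so this gene rests on the fewest reads of the 3. In the GENCODE M21 annotation 212 exonic bases of Psmb9 are shared with Tap1 on the opposite strand, and 498 of Psmb8 with the antisense gene Gm20496. The strand setting of the counting is not given in the sources used here. Reads from the shared bases could therefore have been counted for either gene or left out. In bulk tissue, more cells of a type that holds these transcripts and more transcript per cell cannot be told apart either. All 10 pan-leukocyte markers rose beside them, where 30.8% of all genes tested were called higher. Summed levels of the markers were 215 to 219.5 CPM in control and 412 to 428 CPM in the libraries labelled cKO. None of the 10 was at 0 in either group. Ptprc, which encodes the leukocyte antigen CD45, rose 2.78-fold (from 12.9 ± 1.1 to 36 ± 1.28 CPM). The part of leukocytes in the rise of Psmb8 and Psmb9 was not tested.

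The constitutive partners were far more abundant in every library. Per length, on the deposited FPKM scale (counts per kilobase of gene per 1e+06 counts), Psmb5 stood at 166 ± 4.55 in control against 9.93 ± 0.44 for Psmb8. Psmb6 stood at 133 ± 8.15 FPKM against 2.95 ± 0.417 for Psmb9, and Psmb7 at 198 ± 3.29 FPKM against 12.1 ± 0.542 for Psmb10. Within the control libraries the FPKM of Psmb8 was therefore 5.98% ± 0.288 of that of Psmb5, Psmb9 was 2.21% ± 0.244 of Psmb6 and Psmb10 was 6.1% ± 0.194 of Psmb7 (SD, n = 3). These are levels of RNA, and they do not show how many cores held either subunit.

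**Figure D2:**
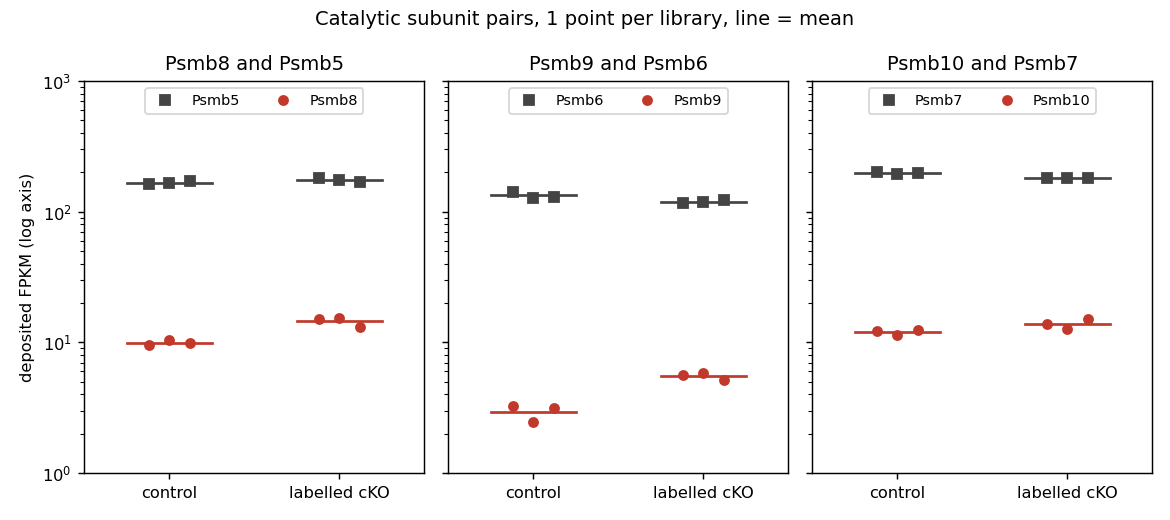
Deposited FPKM (vertical log axis) of each catalytic pair in the 3 control libraries and the 3 labelled cKO, with 1 point per library and a line at the mean. The constitutive genes (squares) lie between 117 and 200.3 FPKM in every library and the immunoproteasome genes (circles) at 15.3 or less.

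A ratio within a library does not depend on the library's scaling, and 3 such ratios were compared. Psmb9 per Psmb6 was 2.27%, 1.94% and 2.42% in the control libraries and 4.82%, 4.94% and 4.21% in the libraries labelled cKO. On the log2 scale this ratio was 1.07 higher (SE 0.12, from the SD between libraries), a 2.11-fold difference. Psmb8 per Psmb5 was 5.9%, 6.29% and 5.73% in control against 8.29%, 8.74% and 7.84% in the libraries labelled cKO, which is 0.47 higher on the log2 scale (SE 0.061). Psmb10 per Psmb7 was 6.1%, 5.9% and 6.29% in control against 7.65%, 6.95% and 8.33% in the libraries labelled cKO, 0.32 higher (SE 0.08). All 3 ratios were higher in each of the 3 libraries labelled cKO than in any control. The exact two-sided permutation p was 0.1 for each, also after Benjamini-Hochberg adjustment over the 3, and 0.1 is the smallest that 3 against 3 libraries allow. For Psmb10 the ratio was higher although the gene's own difference was not called, while Psmb7 fell.

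**Figure D3:**
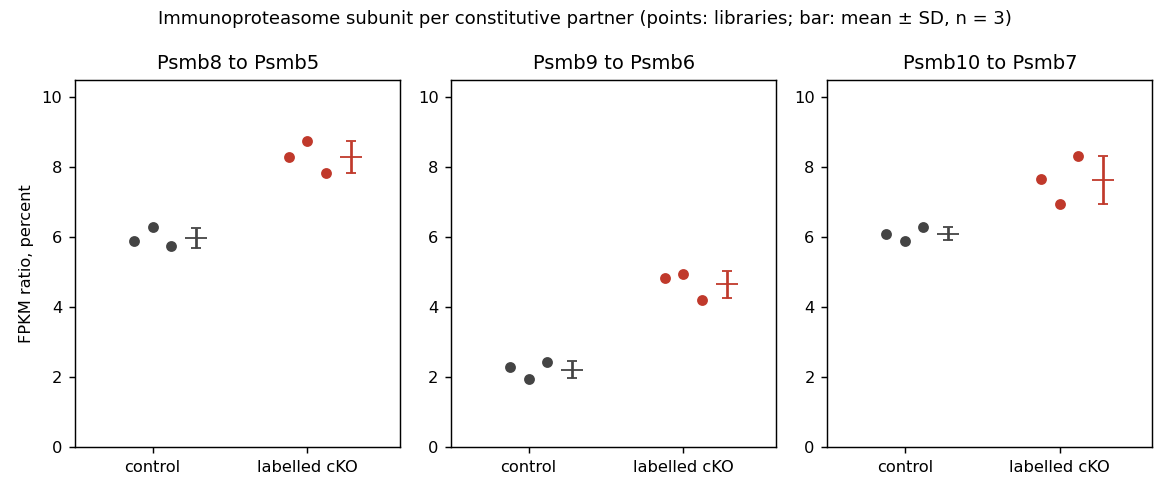
FPKM of each immunoproteasome gene as a percent of its constitutive partner (vertical axis from 0) in each library, with mean ± SD over n = 3. The libraries labelled cKO lie above the controls in all 3 pairs, from 2.21% to 4.65% for Psmb9 per Psmb6.

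Among the 3 constitutive catalytic genes, Psmb6 and Psmb7 fell and Psmb5 did not pass the test. Psmb6 (NCBI gene 19175), the beta 1 subunit with caspase-like activity, had 161, 144 and 147 CPM in control and 130.3, 132 and 136 CPM in the libraries labelled cKO. The groups did not overlap, with replicate 1 the highest control, and the fall was 1.13-fold (log2 fold change -0.18, SE 0.033, adjusted p = 2.71e-06). Psmb7 (NCBI gene 19177), the beta 2 subunit with trypsin-like activity, had 214, 207 and 212 CPM against 191, 189.5 and 189 CPM. Its groups did not overlap and it fell 1.11-fold (log2 fold change -0.15, SE 0.026, adjusted p = 9.06e-07). In the annotation 405 exonic bases of Psmb7 are shared with Nek6 on the opposite strand. Psmb5 (NCBI gene 19173), the beta 5 subunit with chymotrypsin-like activity, had 142, 145 and 150.1 CPM against 157, 151 and 145 CPM. Its groups overlapped (log2 fold change 0.05, SE 0.031, adjusted p = 0.176). Summed CPM of Psmb6 and Psmb9 went from 154 ± 9.69 to 139 ± 2.66, since the rise of Psmb9 was small beside the fall of Psmb6. The sum of Psmb5 and Psmb8 went from 158 ± 3.98 to 169 ± 7.53, and that of Psmb7 and Psmb10 from 226 ± 4.2 to 207 ± 1.61.

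The structural beta genes Psmb1 to Psmb4, which close the ring and cut no peptides, were lower or not called. Psmb4 (NCBI gene 19172), beta 7, had 228, 226 and 237 CPM in control and 183, 189.7 and 179 CPM in the libraries labelled cKO. All 3 libraries labelled cKO were below the controls, and it fell 1.25-fold (log2 fold change -0.32, SE 0.027, adjusted p = 1.15e-17). Psmb1 (beta 6) fell 1.18-fold, from 230.1 ± 4.1 to 194 ± 3.31 CPM (adjusted p = 3.08e-13), also without overlap. Psmb2 (beta 4) was called lower at 1.07-fold (adjusted p = 0.0264) although its groups overlapped. The call was lost without control replicate 1, control replicate 2 or replicate 2 labelled cKO. It was also lost with library totals, DESeq2 and all 3 limma fits on log2 FPKM. Psmb3 (beta 3) had 181 ± 2.06 CPM in control and 177 ± 3.86 CPM in the libraries labelled cKO and was not called (adjusted p = 0.376). In the alpha ring, which gates the core, 2 of 7 genes fell, 1 rose and 4 were not called. Psma6 fell 1.22-fold, from 161 ± 4.25 to 133 ± 2.91 CPM (adjusted p = 9.27e-13), and Psma2 fell 1.12-fold, from 178 ± 5.2 to 159.6 ± 2.33 CPM (adjusted p = 1.57e-06). Psma3 rose 1.06-fold, from 149 ± 0.436 to 157 ± 3.11 CPM (adjusted p = 0.0181), a call lost without replicate 3 labelled cKO (log2 fold change 0.07). Psma1, Psma4, Psma5 and Psma7 had log2 fold changes of -0.06, 0.01, -0.03 and 0.02. Over the 14 constitutive genes of the core, 7 fell and 1 rose, where 30.6% of all genes tested fell and 30.8% rose. The median log2 fold change of the 14 was -0.08 (all genes tested 0.00), and their summed level went from 2354 ± 20.4 to 2184 ± 3.42 CPM.

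The PA28 alpha-beta cap opens the core without ubiquitin, and its 2 subunit genes, like Psmb8 and Psmb9, are known to respond to interferon gamma. Neither rose here. Psme2 (NCBI gene 19188), the beta subunit, had 75.4, 75.2 and 80 CPM in control and 68.3, 59.6 and 67.7 CPM in the libraries labelled cKO. It was lower in each library labelled cKO than in any control and fell 1.18-fold (log2 fold change -0.24, SE 0.047, adjusted p = 9.17e-06). Psme1 (NCBI gene 19186), the alpha subunit, had 57.5, 61 and 64.8 CPM against 67.9, 61.3 and 62.6 CPM. Its groups overlapped, and the difference did not pass (log2 fold change 0.07, SE 0.049, adjusted p = 0.248). Psme2b is a near copy of Psme2: its transcript matched that of Psme2 at 99.4% of 794 aligned bases. Reads that fit both copies could have been split between them or left out of both counts, and the sources used here do not say which. Psme2b had 22.1 ± 2.46 CPM in control and 20 ± 1.56 CPM in the libraries labelled cKO (adjusted p = 0.137), and the sum of both copies went from 99 ± 1.02 to 85.2 ± 6.13 CPM. Of the interferon-induced genes all 11 tested rose (median log2 fold change 1.43), where 30.8% of all genes tested were called higher. Among the 11 were Cxcl9 at 9.2-fold, Oasl2 at 4.29-fold and Ifit1 at 3.96-fold.

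The other 2 activator genes rose and the inhibitor gene fell. Psme3, the PA28 gamma subunit of the nucleus, rose 1.14-fold, from 92.9 ± 2.83 to 106 ± 0.928 CPM (adjusted p = 1.07e-05). Psme4, the PA200 activator, rose 1.13-fold, from 129.7 ± 3.66 to 147 ± 4.09 CPM (adjusted p = 1.34e-06). Psmf1 (NCBI gene 228769), which encodes the inhibitor PI31, had 25.7, 24.5 and 26 CPM in control and 19.2, 20 and 17.3 CPM in the libraries labelled cKO. It was the member with the second largest fall, 1.35-fold (log2 fold change -0.43, SE 0.081, adjusted p = 3.60e-06). In none of these 3 genes did the groups overlap, and 64.9% of all genes tested had no overlap either. Over all genes tested 30.8% were called higher and 30.6% lower.

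Genes of the 19S base were lower or not called. Of the 6 ATPase genes, which form the ring that unfolds substrates, 3 fell and none rose, beside 30.6% and 30.8% of all genes tested. Psmc4 fell 1.18-fold, from 117 ± 2.07 to 99.4 ± 2.3 CPM (adjusted p = 1.44e-08). Psmc2 and Psmc1 fell 1.07-fold and 1.05-fold (adjusted p = 0.012 and 0.0439). The call of Psmc1 was lost in 5 of 6 fits that left out 1 library (all but replicate 3 labelled cKO). It was also lost with library totals, no count filter, DESeq2 and all 3 limma fits on log2 FPKM. That of Psmc2 was lost without control replicate 1 or replicate 1 labelled cKO, with library totals and with all 3 limma fits on log2 FPKM. Psmc3, Psmc5 and Psmc6 had log2 fold changes of -0.05, -0.04 and -0.00. Of the 3 other base genes, the ubiquitin receptor Psmd4 fell 1.08-fold, from 138 ± 6.73 to 128 ± 2.87 CPM (adjusted p = 0.00426). This call was lost without control replicate 3 (log2 fold change -0.06) and with all 3 limma fits on log2 FPKM. The scaffold genes Psmd1 and Psmd2 had log2 fold changes of -0.05 and -0.02 and were not called.

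In the lid, which holds the enzyme that removes ubiquitin, 4 of 8 genes were called higher and 3 lower. Over all genes tested 30.8% were called higher and 30.6% lower. Psmd8 (NCBI gene 57296) had the largest fall of all members, with 286, 284 and 277 CPM in control and 200.3, 191 and 204 CPM in the libraries labelled cKO. The highest library labelled cKO was far below the lowest control, and the fall was 1.42-fold (log2 fold change -0.51, SE 0.025, adjusted p = 2.53e-29). With the assumed BCV of 20% its adjusted p was 0.113. Psmd3 fell 1.13-fold, from 128 ± 1.79 to 113 ± 5.21 CPM (adjusted p = 1.49e-05), and Psmd13 fell 1.07-fold (adjusted p = 0.0137). The call of Psmd13 was lost without control replicate 3 or replicate 3 labelled cKO, with library totals and with all 3 limma fits on log2 FPKM. Psmd7, the structural partner of the deubiquitinase, rose 1.13-fold, from 145 ± 6.2 to 164 ± 4.14 CPM (adjusted p = 9.34e-07). Psmd12 rose 1.12-fold, from 88.7 ± 2.12 to 99.4 ± 3.49 CPM (adjusted p = 0.000154), and Psmd11 and Psmd6 rose 1.11-fold and 1.09-fold. Psmd14, the deubiquitinase itself, had 83.3 ± 3.34 CPM in control and 85.4 ± 3.98 CPM in the libraries labelled cKO and was not called (adjusted p = 0.457).

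Assembly chaperones, which guide subunits into place and leave the finished particle, also went both ways. Of the 19S chaperones, Psmd5 rose 1.26-fold, from 48 ± 2.7 to 60.3 ± 1.87 CPM (adjusted p = 6.50e-08), and Psmd9 fell 1.25-fold, from 34.8 ± 0.891 to 27.7 ± 0.573 CPM (adjusted p = 1.52e-05). Psmd9 shares 1849 exonic bases with the long noncoding gene Gm26745 on the opposite strand in the annotation. Psmd10 had 14.8 ± 0.357 CPM in control and 15.4 ± 0.71 CPM in the libraries labelled cKO and was not called (adjusted p = 0.615). Of the 20S chaperones, Pomp, which is needed for the maturation of both core types, rose 1.09-fold, from 116 ± 1.9 to 127 ± 2.98 CPM (adjusted p = 0.00108). Psmg4 fell 1.27-fold from 13.1, 14.4 and 12.1 CPM to 10.7, 8.34 and 12.1 CPM (adjusted p = 0.00843), with a wide spread and a call lost without control replicate 2, without replicate 2 labelled cKO and with limma on unfiltered FPKM. Psmg1, Psmg2 and Psmg3 had log2 fold changes of 0.17, 0.01 and 0.20 and were not called, although the groups of Psmg1 did not overlap. Those of Psmg4 nearly met in CPM and overlapped on the deposited FPKM, with 21.8 in control replicate 3 and 22.1 in replicate 3 labelled cKO.

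**Figure D4:**
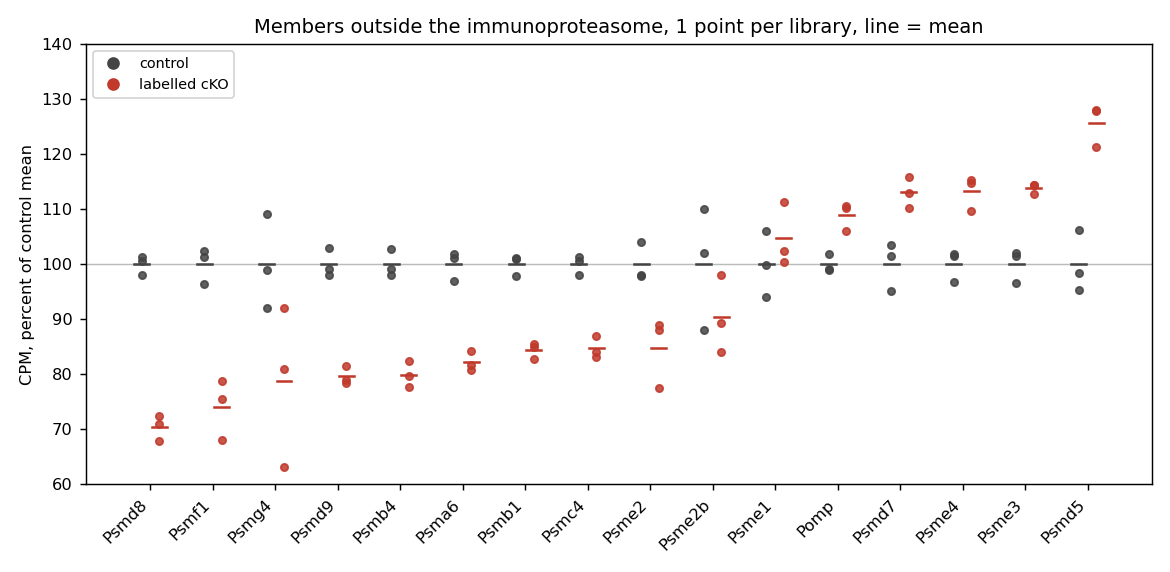
CPM in each library as a percent of the control mean (vertical axis, 60 to 140) for 16 members outside the immunoproteasome, with 1 point per library and a line at the mean (n = 3 a group). Psmd8 lies near 70 and Psmd5 near 126 in the libraries labelled cKO, and the groups of Psme1 and Psme2b overlap.

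The 2 tissue-restricted core genes were close to absent. Psma8, the alpha subunit of the testis, had 7, 2 and 9 control counts against 6, 0 and 7, and Psmb11, the catalytic subunit of the thymus, had 1, 4 and 0 against 0, 0 and 0. Neither was tested. A count of 0 allows up to 3 counts, or 0.0817 to 0.0837 CPM depending on the library, for counting error only. Psmc3ip, named for an interaction with Psmc3 but known as a factor of meiotic recombination, rose 1.37-fold, from 4.59 ± 0.206 to 6.32 ± 0.859 CPM (adjusted p = 0.0133). The call was lost without replicate 1 labelled cKO (log2 fold change 0.35). In the annotation 385 exonic bases of Psmc3ip are shared with Mlx on the opposite strand. Psme3ip1 had 27.9 ± 1.36 CPM in control and 27.5 ± 1.94 CPM in the libraries labelled cKO and was not called (adjusted p = 0.814).

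Genes that act on or beside the proteasome changed in both directions. For the counts that follow, 30.8% of all genes tested were called higher and 30.6% lower. Of 10 listed partners, 5 rose and 4 fell (median log2 fold change 0.07). The proteasome-bound deubiquitinase gene Usp14 rose 1.18-fold, from 69.4 ± 3.8 to 81.9 ± 3.26 CPM (adjusted p = 3.23e-06), Zfand5 rose 1.13-fold, and Zfand2a fell 1.13-fold. Of 10 genes for ubiquitin and its shuttles, 4 rose and 5 fell (median -0.08). The ubiquitin gene Ubb fell 1.33-fold, from 574 ± 2.58 to 433 ± 3.08 CPM (adjusted p = 2.41e-32), while the shuttle gene Ubqln2 rose 1.28-fold. Of 12 genes listed for transcriptional control of the proteasome, 6 rose and 4 fell (median 0.18). Nfe2l1, the activator of the constitutive genes, had 284, 284 and 282 CPM against 222, 221 and 209 CPM, with no overlap, and fell 1.3-fold (log2 fold change -0.38, SE 0.025, adjusted p = 4.18e-23). Nfe2l2, which answers oxidative stress, rose 2.75-fold, from 56.9 ± 0.441 to 156 ± 2.34 CPM (adjusted p = 5.92e-48). On the interferon side, Irf8 rose 1.79-fold, Nlrc5 1.74-fold and Irf1 1.69-fold, with adjusted p of 4.11e-07, 7.39e-10 and 3.90e-08.

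Genes of class I peptide presentation, which receive what the immunoproteasome cuts, were mostly higher, with 8 of 11 called higher and 1 lower (median 0.27). The shares over all genes tested were 30.8% higher and 30.6% lower. Tap1, the neighbour of Psmb8 and Psmb9, rose 1.18-fold, from 23 ± 1.99 to 27.2 ± 0.927 CPM (adjusted p = 0.00461), by less than either. The chaperone gene Calr rose 1.44-fold, the class I heavy chain gene H2-K1 1.35-fold and the peptide trimmer gene Erap1 1.33-fold. Markers of the cell types that could hold these transcripts moved as well. All 7 tested neutrophil markers rose, from summed levels of 11.3 to 15.1 CPM in control to 68.1 to 70.6 CPM, with Ly6g too low to test. Of 9 macrophage and dendritic markers 8 rose (822 to 843 CPM against 1206 to 1215 CPM), and of 7 T cell markers 6 rose (3.6 to 5.05 CPM against 13.9 to 15 CPM). All 4 endothelial markers and 5 of 6 fibroblast markers rose, all 10 cell cycle genes rose, all 5 red blood cell markers fell, and 1 of 5 tested skeletal muscle markers rose. No listed marker was at 0 in every library of a group.

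**Figure D5:**
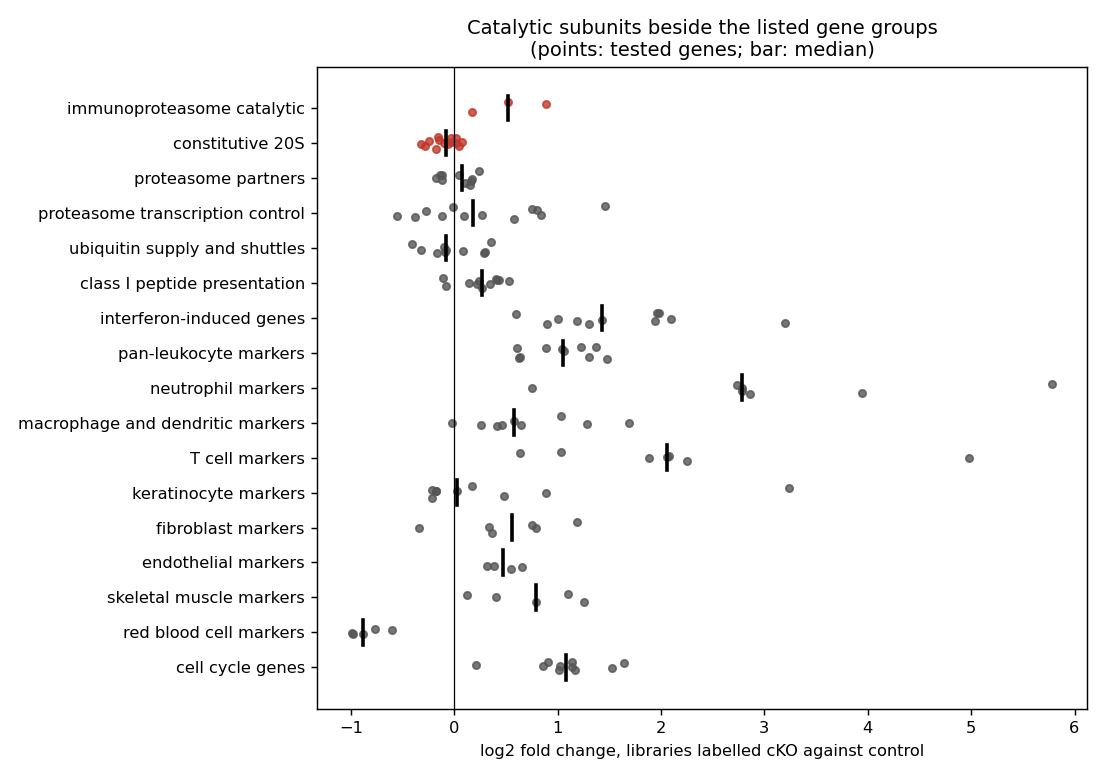
Log2 fold change (horizontal axis, libraries labelled cKO against control, n = 3 each) of every tested gene in the listed groups, with the median as a bar, beside the 3 catalytic immunoproteasome genes and the 14 constitutive core genes (top 2 lines). The core genes lie close around their median of -0.08, while interferon-induced genes and leukocyte markers lie at medians of 1.43 and 1.05, above the immunoproteasome median of 0.52.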

How the data were processed

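The authors deposited 1 table of counts and 1 table of FPKM for 18180 genes in 6 libraries. The tools were fastp, HISAT2 and HTSeq and the build mm39, per the submitters' processing notes; the sources used here give no versions, annotation or strand setting. The deposited counts are whole numbers and not normalized. The deposited FPKM could be rebuilt for all 18180 genes from the counts, the library total and a single length for each gene (relative tolerance 1e-06). FPKM served for levels between genes and for alternatives. Every value column was mapped to a library by its title.

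Tests used edgeR 4.0.16 (R 4.3.3): filterByExpr with a minimum count of 10 and minimum total of 15, TMM scaling, robust quasi-likelihood fit with group as the only term, and Benjamini-Hochberg adjustment over the 15061 genes tested, two-sided. Printed CPM use the scaled library sizes, and standard errors were derived from the log2 fold change and the F statistic. DESeq2 1.42.0 and limma 3.58.1 served as alternatives. The steps were checked on simulated counts. Libraries of a group differed beyond counting noise in every pair and were counted separately.

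The members, the roles and all 15 lists were chosen with earlier results of these data known. Of 131 listed names 128 were in the table. In full were given Psmb5 to Psmb10, Psme1 and Psme2, and in each other role up to 2 called members with the largest rise and fall. From each list up to 3 called genes with the largest change and at least 1 CPM could be named, besides Mettl3, Nfe2l1, Irf1, Nlrc5, Tap1 and Ptprc. Single values of some listed genes are not reported here. Promoter windows came from RefSeq on GRCm38.p6, matched by gene number. Exon overlaps and transcripts came from GENCODE M21 on GRCm38, used by name only. Overlaps not given above include 342 bases of Psmd13 with Sirt3 on the opposite strand. On the same strand, Psmg3 shares 280 bases with Gm26938 and Psmd1 shares 301 with Gm21972.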

Additional observations from a re-analysis of the deposited data

How the results depend on the processing

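With an assumed BCV of 20% the genes called numbered 3361, the members called higher 1 and the members called lower 0, with edgeR's likelihood ratio test. The counts of members called ranged from 11 to 13 higher and from 15 to 17 lower when 1 library was left out. The differences in log2 ratio then ranged from 0.98 to 1.15 for Psmb9 to Psmb6, 0.43 to 0.51 for Psmb8 to Psmb5, and 0.26 to 0.39 for Psmb10 to Psmb7, and with log2((FPKM + 1) ratio) the first was 0.89. Of the 12 members called higher 10 were called under every alternative run but the assumed BCV, and of the 18 called lower 12. Uncalled members close to 0 changed sign. By library totals Psmc6, Psmd2 and Psme3ip1 had log2 fold changes of 0.0199, 0.0053 and 0.0020. By limma on log2(FPKM + 1), with or without the filter of 0.5 FPKM in 3 libraries, these were 0.0201, 0.0051 and 0.00054, and on log2(FPKM + 0.1) 0.0203, 0.0052 and 0.00048. Leaving out 1 library gave ranges of -0.028 to 0.011 for Psmc6, -0.053 to 0.038 for Psme3ip1, -0.054 to 0.0025 for Psma5, and -0.028 to 0.034 for Psmg2. The cause was not tested. With limma-voom, run on the counts, no member's call changed. The replicate number as a block gave 12 members higher and 18 lower and changed no member's call. Samples with the same number did not deviate together (correlations of -0.02, -0.02 and -0.06), and no sample correlated best with its own number. Genes at a few counts, Psma8 and Psmb11, are limited by depth.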

Other observations

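Per length, the 14 constitutive genes of the core were not at equal levels although each product is needed in equal number. In every library Psma5 was the lowest, at 66.9 to 72 FPKM, and Psmb3 the highest, at 240.1 to 250.2 FPKM, a ratio of 3.37 to 3.66. The coefficient of variation across the 14 genes was 35.3% to 37.7% in the control libraries and 33.3% to 33.5% in the libraries labelled cKO. These FPKM rest on a single length for each gene, such as 731 bases for Psmb3 and 1217 for Psma5. The part of the chosen length in the spread was not tested.

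The ratio of Psme1 to Psme2, chosen after its values were seen and given with no test, was 76.3%, 81% and 81% in the control libraries and 99.5%, 103% and 92.4% in the libraries labelled cKO on the FPKM scale. Against the sum of Psme2 and its near copy Psme2b, Psme1 was at 58.9%, 63.6% and 66.2% in control against 78.7%, 80.1% and 71.5% in the libraries labelled cKO.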
